A study of Mus musculus with 2 samples.

Results

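The 40 genes described here, of 31253 in the files, are genes of the cell division cycle, chosen by symbol from a fixed list and all found in both libraries. Of them, 16 are S phase genes, 23 are G2/M genes, and Stmn1, which encodes a protein that destabilises microtubules, was kept apart from both lists. They were followed across cell classes of the mouse pancreas in 2 single-cell RNA libraries made on the BD Rhapsody system. One library, CP, came from mice treated with Cae, an abbreviation that the labels do not spell out and that they name as the inducer of pancreatitis. The other, CP+EVs, came from mice given Cae and EVs, which the study's title gives as extracellular vesicles induced by physical exercise. The disease is chronic in the title and acute in the condition label, which both libraries carry. Both are treated, neither is an untreated control, and the sources used here give no number, strain, sex or age of animals and no dose or time. Each condition is 1 library, so no difference below has a replicate check or a test. All intervals are exact 95% intervals that cover counting error only, and they do not measure the spread between animals; beside a count of 0 the limit that 3 counts would give is printed as well.

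A dividing cell copies its DNA in S phase and separates the copies in mitosis, after a gap called G2. In S phase the Mcm2 to Mcm7 proteins form the ring-shaped helicase that opens DNA; Cdc6 loads it, Cdc45 and Gins2 switch it on, and Pcna, the sliding clamp, holds the polymerases in place. Rrm1 and Rrm2 (ribonucleotide reductase), Tyms and Tk1 supply the nucleotides, Uhrf1 copies DNA methylation, and Ccne2 is the cyclin that helps to start the phase. In G2 and mitosis, Cdk1 with its cyclins Ccna2, Ccnb1 and Ccnb2 drives entry, Top2a untangles the chromosomes and Mki67 coats them. Kinesins and spindle proteins (Kif11, Kif23, Tpx2, Prc1, Nusap1, Hmmr), kinases (Aurka, Aurkb, Plk1), centromere proteins (Cenpa, Cenpe, Cenpf) and Birc5 move them. Bub1 and Bub1b hold the process until the chromosomes are attached, and Cdc20 and Ube2c end it through protein destruction. In adult tissue most cells rest outside the cycle, while activated lymphocytes, germinal centre B cells and blood cell precursors divide often.

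The 2 lists are also known for different promoter elements: genes of G2 and mitosis for the cell cycle homology region (CHR) and the CCAAT box, genes of S phase for the E2F site. RefSeq promoter windows of the GRCm38.p6 assembly, which run from 250 bases before the gene start to 50 after it, were at hand for 33 of the 40 members. The CHR letters searched were TTTGAA or TTCGAA, the E2F letters were TTTGGCGC, TTTGCCGC, TTTCCCGC or TTTCGCGC, and both strands were read for all. The CHR was found in 16 of 20 G2/M windows (80.0%) and 3 of 13 S phase windows (23.1%), against 19.4% of all 27025 windows. CCAAT stood in 18 G2/M windows (90%), in 10 S phase windows (76.9%) and in 37.9% of all. The E2F letters stood in 1 G2/M window (5.0%), in 5 S phase windows (38.46%) and in 2.32% of all. A match is a description of the letters and not evidence that a factor binds. The 150 bases before the start are shown for the 4 G2/M members and the 4 S phase members with the most UMIs. The matches are in capitals, on either strand, and each stretch is read along the gene's own strand.

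Top2a, chr11:99024190-99024339, minus strand: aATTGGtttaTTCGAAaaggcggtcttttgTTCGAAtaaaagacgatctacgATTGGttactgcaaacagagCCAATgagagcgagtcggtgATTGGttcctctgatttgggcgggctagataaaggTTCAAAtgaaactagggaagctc

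Mki67, chr7:135716380-135716529, minus strand: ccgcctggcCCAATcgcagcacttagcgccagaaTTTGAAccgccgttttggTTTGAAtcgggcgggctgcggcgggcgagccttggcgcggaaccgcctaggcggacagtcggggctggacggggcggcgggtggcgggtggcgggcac

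Cenpa, chr5:30666736-30666885, plus strand: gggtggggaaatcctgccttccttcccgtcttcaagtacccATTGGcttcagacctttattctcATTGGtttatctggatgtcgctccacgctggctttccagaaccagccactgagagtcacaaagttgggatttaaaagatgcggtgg

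Ube2c, chr2:164769779-164769928, plus strand: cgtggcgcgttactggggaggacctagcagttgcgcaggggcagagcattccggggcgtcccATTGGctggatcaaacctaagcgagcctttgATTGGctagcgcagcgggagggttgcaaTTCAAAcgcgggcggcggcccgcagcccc

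Pcna, chr2:132253181-132253330, minus strand: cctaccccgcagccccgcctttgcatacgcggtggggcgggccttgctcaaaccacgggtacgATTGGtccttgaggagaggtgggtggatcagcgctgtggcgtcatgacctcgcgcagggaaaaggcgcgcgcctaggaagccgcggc

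Rrm1, chr7:102441545-102441694, plus strand: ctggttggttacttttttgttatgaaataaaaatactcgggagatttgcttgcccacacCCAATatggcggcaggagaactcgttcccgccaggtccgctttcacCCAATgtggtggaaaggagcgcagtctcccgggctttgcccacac

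Mcm6, chr1:128359706-128359855, minus strand: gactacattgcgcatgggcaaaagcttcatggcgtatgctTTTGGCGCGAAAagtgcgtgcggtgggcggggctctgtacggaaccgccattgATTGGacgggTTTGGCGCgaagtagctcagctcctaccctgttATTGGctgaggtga

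Rrm2, chr12:24708104-24708253, plus strand: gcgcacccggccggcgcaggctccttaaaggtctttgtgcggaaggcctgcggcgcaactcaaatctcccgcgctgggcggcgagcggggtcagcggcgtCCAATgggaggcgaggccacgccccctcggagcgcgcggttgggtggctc

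In these stretches Top2a held 3 CHR matches and 4 CCAAT matches, and Mki67 held 2 and 1. Mcm6 held 3 E2F matches, of which 2 overlap each other as the single run of capitals TTTGGCGCGAAA, and it held 2 CCAAT matches. Pcna and Rrm2 each held 1 CCAAT match and neither of the other motifs.

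The CP library held 13507 barcodes with a median of 1417 UMIs (molecules counted by their identifiers), and the CP+EVs library 8845 barcodes with a median of 2884. After 98 and 46 barcodes were removed by quality, a class was given to 67.4% and 82.4% of the rest from marker UMIs alone, without reading a cell cycle gene. A class name below means the barcodes that passed that gate. Every defining marker of a class with at least 50 barcodes in a library was higher in it than in the rest of that library, except 1 of 8 monocyte markers in CP+EVs and 1 of 14 acinar markers in CP; the markers chose the barcodes, so this only describes the gate. The libraries share 118 barcode sequences, and values that move without them are given. Free RNA differed as well: markers of acinar cells made up a median of 1.01% of the UMIs of a CP+EVs B cell and 0% of a CP B cell, while neutrophil markers made up 0.0821% of a CP B cell and 0% of a CP+EVs one. The part of free RNA in the differences below was not tested.

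A barcode was counted as a G2/M barcode when, thinned at random to 1000 UMIs, it still held UMIs of at least 2 different G2/M members, and as an S phase barcode by the same rule. Thinning removes the advantage of deep barcodes and leaves out 4983 CP and 1950 CP+EVs barcodes that were shallower. Over the whole of each library, 473 of 8426 CP barcodes (5.61%, 5.13 to 6.13) and 503 of 6849 CP+EVs barcodes (7.34%, 6.74 to 7.99) were G2/M barcodes. S phase barcodes numbered 590 (7.0%) and 575 (8.40%), and 212 and 251 barcodes met both rules. Without thinning the G2/M shares read 12.9% and 21.0% and the S phase shares 21.9% and 30.1%. Over all kept barcodes the G2/M members summed to 736 CPM (UMI counts scaled to the total UMIs of the class, the usual CPM unit) in CP and 1265 in CP+EVs, and the S phase members to 595 and 736 CPM. Intervals of CPM ratios, for sums and for single genes, take each UMI as an independent count. They therefore leave out the spread between barcodes, and are too narrow where few barcodes hold many of the UMIs. A gene was called measured in a class where either library reached 20 CPM and the sum over both reached 20 UMIs, and higher when its CPM was at least 1.5-fold that of the other library. Over all kept barcodes 12 of 18 measured G2/M members and 2 of 12 S phase members were higher in CP+EVs and 0 in CP, beside 9.66% and 22.7% of all 7155 measured genes.

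Types that are known to rest give a level against which the shares can be read. Mature neutrophils have left the cycle, and the 1902 CP neutrophils with no UMI of a bone marrow precursor marker gave 33 G2/M barcodes of 1580 (2.09%, 1.44 to 2.92) and 20 S phase barcodes (1.27%, 0.775 to 1.95). B cells with an Ighd UMI and no germinal centre marker UMI, a resting type, gave G2/M shares of 1.86% (4 of 215) and 1.90% (7 of 368) in CP and CP+EVs. Their S phase shares were 11.2% (7.28 to 16.2) and 8.97% (6.25 to 12.4), so S phase shares of this size also occur in a resting type. CP eosinophils, also taken as a class that should not divide, gave a higher G2/M share, 7 of 108 (6.48%, 2.65 to 12.9). Their S phase share was 0.926%. Median depth was 1742.5 UMIs in these neutrophils, 1449 in the eosinophils, and 2249 and 2902 in the 2 sets of B cells.

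**Figure D1:**
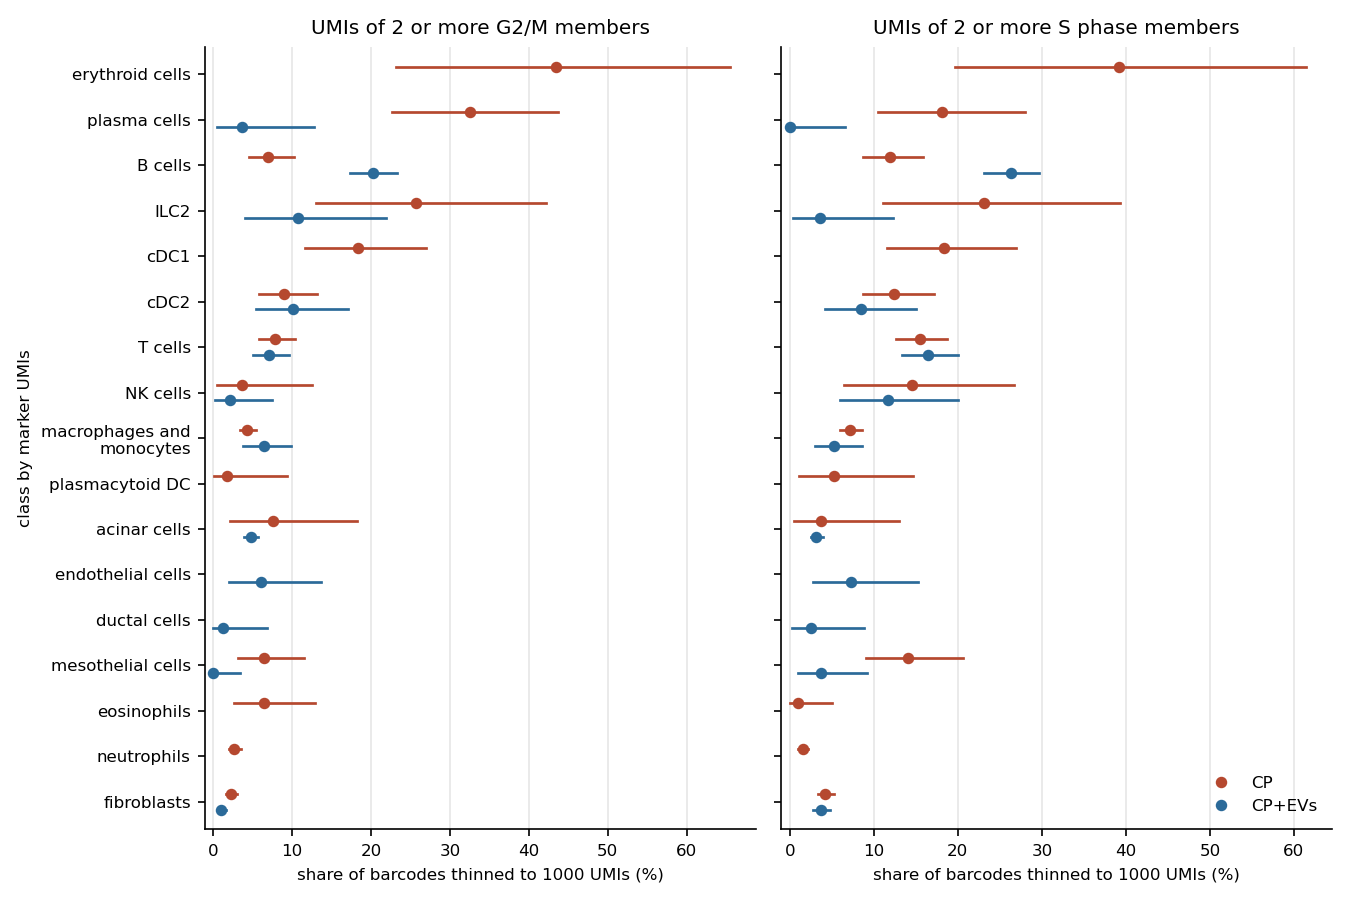
Share of barcodes, thinned to 1000 UMIs, that held UMIs of 2 or more G2/M members (left) or S phase members (right), by class and library; points are shares, lines exact binomial 95% intervals, and only classes with at least 50 barcodes in a library are drawn. The B cell intervals of the 2 libraries stand apart, with CP+EVs higher, and the plasma cell intervals stand apart with CP higher. In fibroblasts the G2/M intervals stand only just apart, with CP higher.

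The class holding the G2/M barcodes differed between the libraries. B cells gave 5.07% of the G2/M barcodes of CP and 29.2% of those of CP+EVs. Macrophages and monocytes gave 14.4% and 3.58%, neutrophils 11.4% and 0%, and acinar cells 0.846% and 21.9%. These shares follow the number of barcodes of each class as well as the share that cycled: the acinar gate, for instance, took 113 CP and 3418 CP+EVs barcodes. Barcodes with no class gave 20.5% and 11.1%, and barcodes with markers of unrelated classes 6.98% and 17.5%.

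**Figure D2:**
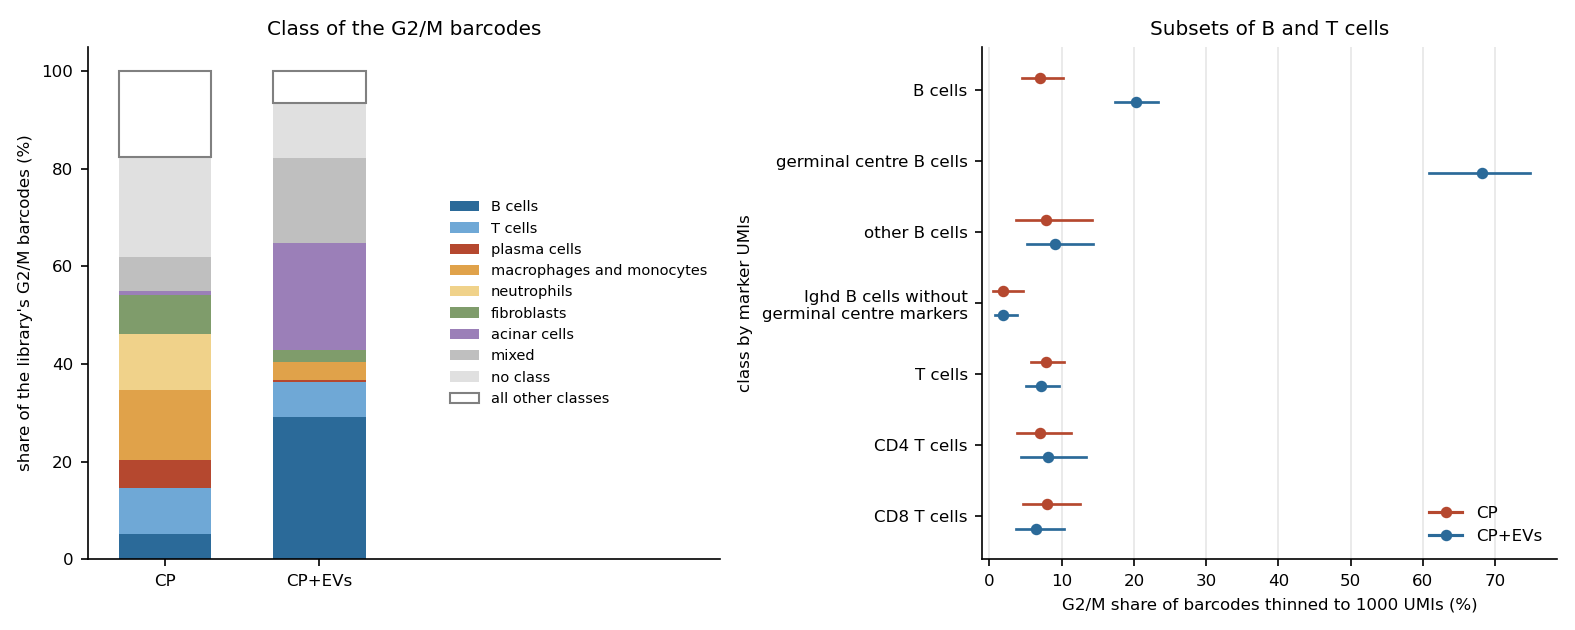
Left, the class of the G2/M barcodes of each library as a percent of all its G2/M barcodes; right, the G2/M share in subsets of B and T cells with at least 50 barcodes in a library, with exact binomial 95% intervals. B cells make up 5.07% of the CP bar and 29.2% of the CP+EVs bar, and the germinal centre subset of CP+EVs, at 68.1%, stands above all other subsets drawn.

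B cells carried more cell cycle RNA in the CP+EVs library, and a germinal centre subset held most of it. Of 344 CP barcodes 24 were G2/M barcodes (6.98%, 4.52 to 10.2), against 147 of 727 in CP+EVs (20.2%, 17.4 to 23.3). S phase barcodes numbered 41 (11.9%, 8.69 to 15.8) and 191 (26.3%, 23.1 to 29.6). Both pairs of intervals stand apart. The S phase share of CP lay near the 11.2% of its resting Ighd set. That set is part of the class and gave 215 of its 344 barcodes and 24 of its 41 S phase barcodes, so the shares are not independent. The summed G2/M members reached 1785 CPM in CP and 5060 in CP+EVs, 2.84-fold more (2.71 to 2.97), and the S phase members 956 and 2454 CPM, 2.57-fold more (2.41 to 2.74). Without barcode sequences shared by the libraries the log2 ratio of the G2/M sum was 1.78 in place of 1.503.

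In B cells 22 of the 23 measured G2/M members were higher in CP+EVs and 0 in CP. Of 6923 genes measured there, 13.7% were higher in CP+EVs and 14.2% in CP. The median log2 ratio of the G2/M members was 1.58, beside -0.01 for all measured genes. Of the S phase members 15 were measured and 14 were higher in CP+EVs, with a median log2 ratio of 1.72. Gins2, with 104 UMIs in all kept barcodes of both libraries, was the S phase member not measured there.

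The mitotic genes with the most UMIs all stood higher in CP+EVs B cells. Top2a stood at 404 CPM in CP (459 UMIs) and 1210 in CP+EVs (4850 UMIs), a 3.0-fold difference (2.72 to 3.31). Mki67 stood at 311 and 1018 CPM, 3.27-fold more in CP+EVs (2.93 to 3.66). Ube2c, the enzyme that marks mitotic proteins for destruction, stood at 119 and 248 CPM, and Birc5, a partner of Aurkb at the centromere, at 87.9 and 194 CPM. The widest ratio among the G2/M members was that of the checkpoint kinase Bub1, with 24 UMIs in CP (21.1 CPM) and 375 in CP+EVs (93.5 CPM), 4.43-fold (2.93 to 7.0). The narrowest was that of Cenpa, the histone variant of the centromere, with 133 and 198 CPM, 1.49-fold (1.25 to 1.78). Every G2/M member was thus higher in CP+EVs in its point value, and Cenpa alone missed the 1.5-fold limit.

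Replication genes of B cells stood higher in CP+EVs as well, with a wider range. Pcna stood at 287 CPM in CP and 510 in CP+EVs, 1.78-fold (1.58 to 2.0). The helicase subunits Mcm6 (74.7 and 223 CPM) and Mcm5 (78.3 and 267 CPM) differed by 2.99-fold and 3.41-fold. Rrm1 stood at 111 and 224 CPM, and its partner Rrm2 at 61.5 and 232 CPM, so the 2 subunits of 1 enzyme differed by 2.02-fold and 3.78-fold. Ccne2 had the widest ratio, with 7 UMIs in CP (6.15 CPM) and 120 in CP+EVs (29.9 CPM), 4.86-fold (2.29 to 12.4). Tk1, thymidine kinase, had the narrowest, with 53.6 and 61.1 CPM and an interval that includes no difference (1.14-fold, 0.857 to 1.53). Stmn1 stood at 112 and 410 CPM, 3.67-fold more in CP+EVs (3.06 to 4.43).

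Divided by markers, the B cells fell into sets with very different levels. The germinal centre gate, which asked for UMIs of at least 3 germinal centre markers, took 13 CP barcodes and 182 CP+EVs barcodes. Of the 13, 11 were G2/M barcodes; of the 182, 124 were (68.1%, 60.8 to 74.8), and 133 were S phase barcodes (73.1%, 66.0 to 79.4). The G2/M members summed to 10876 CPM in the 13 CP barcodes and 9265 CPM in the CP+EVs set, 1.17-fold more in CP (1.096 to 1.26), and the S phase members to 2916 and 4077 CPM. That interval counts UMIs and not the 13 barcodes. The ratio of the G2/M shares, 1.24-fold more in CP, had an interval that includes no difference (0.604 to 2.30). In CP+EVs 23 of 23 G2/M members, 16 of 16 S phase members and Stmn1 reached their highest CPM of that library there among classes and subsets with at least 50 barcodes. Top2a read 2163 CPM and Mki67 1933 CPM in it. These barcodes were also deep, with a median of 8564 UMIs against 2902 in the Ighd set.

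The resting Ighd set did not differ between libraries beyond counting error in its sums. Its G2/M members summed to 363 CPM in CP and 369 in CP+EVs (1.02-fold, 0.861 to 1.20), and its S phase members to 588 and 624 CPM (1.06-fold, 0.933 to 1.21). Of its 4 measured G2/M members only Cenpe, a kinesin of the centromere, was higher in CP+EVs (5 and 28 UMIs), and of 11 S phase members Mcm2, Mcm4, Rrm2 and Uhrf1 were, while 0 were higher in CP, beside 9.23% and 13.3% of all genes. The remaining B cells, which fell in neither set, gave G2/M shares of 7.76% (9 of 116) and 9.04% (16 of 177). Their G2/M members summed to 1923 and 2441 CPM, 1.27-fold more in CP+EVs (1.17 to 1.37), and their S phase members to 1058 and 1469 CPM, 1.39-fold (1.25 to 1.54). Of 20 measured G2/M members 5 were higher in CP+EVs and 2 in CP, and of 14 S phase members 7 and 1 were, beside 15.3% and 14.6% of all genes. The ratios of both sets without the germinal centre gate were thus smaller than the 2.84-fold of all B cells.

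Plasma cells, here the barcodes with markers of antibody-secreting cells, showed the reverse order. The gate did not separate antibody-secreting cells that still divide from those at the end stage. In CP 27 of 83 barcodes were G2/M barcodes (32.5%, 22.7 to 43.7), against 2 of 54 in CP+EVs (3.70%, 0.452 to 12.7). S phase barcodes were 15 of 83 (18.1%, 10.48 to 28) and 0 of 54, which allows a share of up to 5.56% by 3 counts and 6.60% by the exact interval. The G2/M members summed to 2677 CPM in CP and 360 in CP+EVs, 7.43-fold more in CP (6.55 to 8.46), and the S phase members to 938 and 259 CPM, 3.62-fold more (3.10 to 4.26).

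Of 21 G2/M members measured in plasma cells, 20 were higher in CP and 0 in CP+EVs, where 44.1% and 7.24% of all 5208 measured genes were. Of 14 S phase members 13 were higher in CP. The median log2 ratio was -2.77 for the G2/M members and -1.87 for the S phase members, beside -0.48 for all genes, so the background itself stood towards CP. Scaling by the median of all gene ratios moves each of these values by 0.36. Mki67 read 659 CPM in CP and 64.0 in CP+EVs, and Top2a 493 and 70.7 CPM. Hmmr, a spindle protein, had the widest ratio with 109 UMIs against 2 (46.3-fold, 12.5 to 387). Bub1b, with 18 and 11 UMIs, had the narrowest G2/M ratio and an interval that includes no difference (1.39-fold, 0.622 to 3.26). Among S phase members Uhrf1 had 25 UMIs against 1, and Tk1 had 27 and 18.

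The part of the total UMIs taken up by a few abundant gene groups differed between the libraries as well. Acinar, Reg, mitochondrial, haemoglobin and immunoglobulin genes made up 44.0% of plasma cell UMIs in CP and 57.9% in CP+EVs; with totals that leave them out, the log2 ratio of the G2/M sum was -2.48 in place of -2.89. Without thinning, the log2 ratio of the G2/M share was -0.07, with 55.8% of CP and 52.7% of CP+EVs barcodes counted; the medians of all UMIs were 8596 and 13494.

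**Figure D3:**
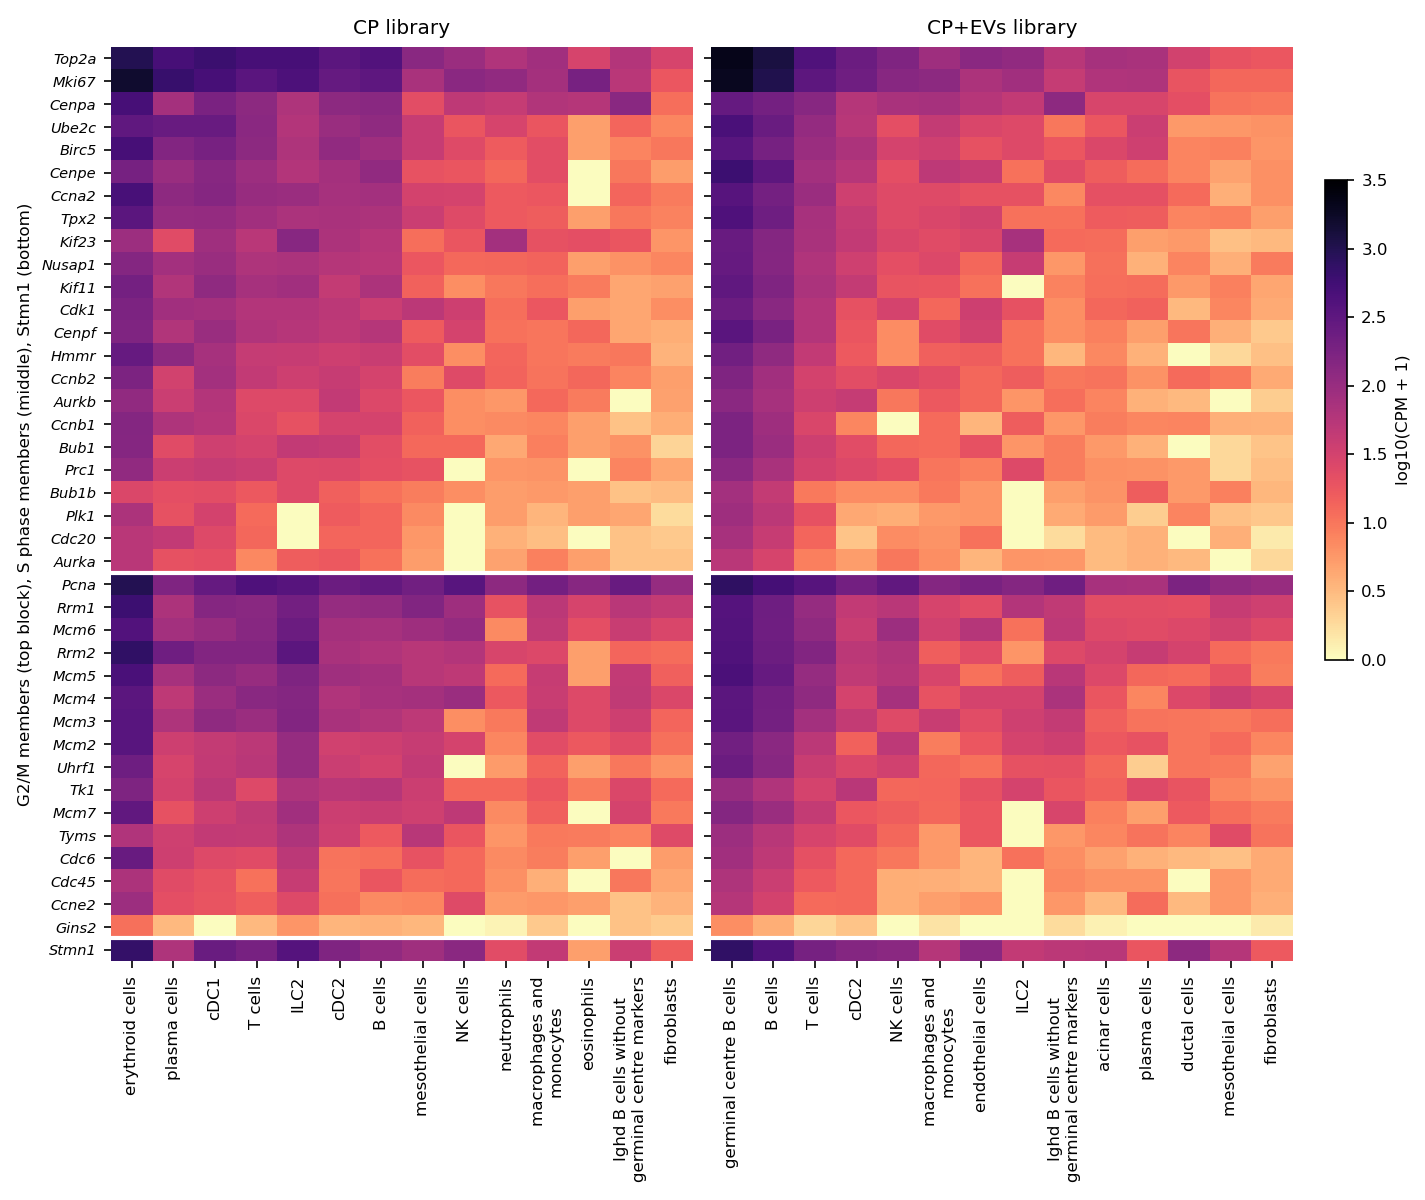
Level of each of the 40 members, as log10 of CPM plus 1, in selected classes and subsets, each with at least 50 barcodes, of the CP library (left) and the CP+EVs library (right); rows are members in order of their UMIs within each list. The darkest columns are the erythroid cells in CP and the germinal centre B cells in CP+EVs, and fibroblasts are among the palest in both.

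Among T cells, the shares of the 2 libraries did not differ beyond their intervals. G2/M barcodes were 45 of 574 in CP (7.84%, 5.78 to 10.4) and 36 of 509 in CP+EVs (7.07%, 5.0 to 9.66), and S phase barcodes 89 (15.5%) and 84 (16.5%). The log2 ratio of the G2/M shares was -0.14, with an interval from -0.82 to 0.52, so a difference of up to that size is not excluded. The sums stood at 2049 and 1875 CPM for G2/M members (1.09-fold more in CP, 1.05 to 1.14) and 1430 and 1274 CPM for S phase members (1.12-fold, 1.07 to 1.18). Of the 19 G2/M and 13 S phase members measured, 0 passed 1.5-fold in either direction, where 4.58% of 6850 genes were higher in CP+EVs and 7.12% in CP. Their ratios ran from -0.49 for the cyclin Ccnb2 (43.2 and 30.6 CPM) to 0.52 for the kinase Aurkb (23.9 and 34.4 CPM) on the log2 scale. Among S phase members the range ran from -0.56 for Tyms (41.9 and 28.2 CPM) to 0.29 for Tk1 (24.3 and 29.7 CPM).

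The intervals of the shares of the T cell subsets overlapped. Their G2/M sums did not all have the same order. In CD4 T cells the G2/M sum was 1726 CPM in CP and 2005 in CP+EVs, 1.16-fold more in CP+EVs (1.08 to 1.25). In CD8 T cells it was 2242 and 2110 CPM, with an interval that includes no difference (1.06-fold more in CP, 0.996 to 1.13). The intervals of the S phase sums of CD4 and of CD8 T cells include no difference. CD4 T cells gave G2/M shares of 6.93% (14 of 202) and 8.07% (13 of 161), and CD8 T cells 7.92% (16 of 202) and 6.38% (15 of 235). In CD4 T cells 6 of 20 measured G2/M members and 1 of 13 S phase members were higher in CP+EVs and 0 in CP, beside 10.8% and 12.1% of all genes, and the widest was the mitotic kinase Plk1 with 6 and 16 UMIs. In CD8 T cells 1 of 19 G2/M members was higher in CP+EVs, the kinase Aurkb with 12 and 39 UMIs, and of 14 S phase members Mcm7 was higher in CP+EVs and Ccne2 in CP, beside 9.74% and 10.3% of all genes. The Foxp3 set, regulatory T cells, held 17 CP and 10 CP+EVs barcodes, of which 3 and 1 were G2/M barcodes. From these few barcodes its G2/M sum was 2626 CPM in CP and 456 in CP+EVs. NK cells gave 2 of 55 and 2 of 94 G2/M barcodes, and 8 and 11 S phase barcodes (14.5% and 11.7%). In NK cells 3 G2/M members were measured, and 2 of them were higher in CP+EVs, where 14.4% of all measured genes were, and 0 in CP, where 14.1% were; the widest was Top2a, with 16 and 54 UMIs (1.72-fold, 0.969 to 3.22). Of 7 S phase members Mcm2 was higher in CP+EVs (5 and 16 UMIs) and Rrm1 in CP (15 and 17 UMIs, 87.3 and 50.4 CPM), and their median log2 ratio was -0.21, beside 0.55 for the G2/M members.

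Group 2 innate lymphoid cells (ILC2), tissue cells that release type 2 cytokines, held more of both lists in CP. G2/M barcodes were 10 of 39 in CP (25.6%, 13 to 42.1) and 6 of 56 in CP+EVs (10.7%, 4.04 to 21.9), and S phase barcodes were 9 (23.1%, 11.1 to 39.3) and 2 (3.57%, 0.435 to 12.3). The intervals of both pairs overlap. As ratios, the G2/M share was 2.39-fold higher in CP, with an interval that includes no difference (0.788 to 8.01). The S phase share was 6.46-fold higher in CP, with an interval that does not (1.34 to 61.5). The sums were 1974 and 544 CPM for G2/M members, 3.63-fold more in CP (2.94 to 4.51), and 2135 and 384 CPM for S phase members, 5.56-fold more (4.37 to 7.16). Of 9 S phase members measured 9 were higher in CP, and of 6 G2/M members 5 were, beside 21.6% of all genes measured, and 0 were higher in CP+EVs, where 16.8% of genes were. Rrm2 had 68 UMIs in CP and 1 in CP+EVs (68.2-fold, 11.8 to 2734), Pcna 75 and 30, Mki67 90 and 17, Cenpa 13 and 9, and Stmn1 78 and 9. The sums come from 50 and 58 barcodes, so 1 barcode weighs more here than in the larger classes.

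In macrophages and monocytes the 2 lists stood in opposite orders. The G2/M sum was 446 CPM in CP and 670 in CP+EVs, 1.5-fold more in CP+EVs (1.41 to 1.6), whereas the S phase sum was 538 and 368 CPM, 1.46-fold more in CP (1.35 to 1.59). The shares overlapped: 68 of 1569 (4.33%, 3.38 to 5.46) and 18 of 282 (6.38%, 3.83 to 9.90) for G2/M, and 113 (7.20%, 5.97 to 8.59) and 15 (5.32%, 3.01 to 8.62) for S phase. Of the G2/M barcodes 50% also met the S phase rule in CP and 11.1% in CP+EVs. The G2/M difference was not seen under 2 other choices: without the deepest 2% of barcodes of each library its log2 ratio was 0.02 in place of 0.59, and with 1 more marker needed it was 0.03.

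Of 12 G2/M members measured in macrophages and monocytes 8 were higher in CP+EVs and 0 in CP, where 12% and 21.7% of all 6391 measured genes were. Of 8 S phase members 0 were higher in CP+EVs and 4 in CP. Cenpf, a centromere protein, had the widest G2/M ratio with 9.23 and 22.8 CPM (2.47-fold, 1.67 to 3.59), and Top2a the narrowest with 83.6 and 87.8 CPM (1.05-fold, 0.88 to 1.25). Ube2c read 17.5 and 42.2 CPM and Mki67 77.2 and 125 CPM. On the S phase side Mcm2 read 22.2 and 7.98 CPM (2.78-fold more in CP, 1.63 to 5.16), and Rrm1 48.9 and 28.5 CPM. Barcodes with more macrophage than monocyte markers showed both differences, at 481 and 733 CPM for G2/M and 627 and 367 CPM for S phase members. Of their 13 measured G2/M members 9 were higher in CP+EVs, and of 8 S phase members 7 were higher in CP, beside 12.3% and 25.2% of all genes. Barcodes with more monocyte markers, 672 in CP and 49 in CP+EVs, had the reverse order for G2/M members, at 469 and 228 CPM (2.06-fold more in CP, 1.56 to 2.78), and held 433 and 339 CPM of S phase members. Scaling by the median of all gene ratios would raise each log2 ratio of macrophages and monocytes by 0.15.

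Dendritic cells present antigen to T cells. Type 1 conventional dendritic cells (cDC1) gave 20 G2/M barcodes of 109 in CP (18.3%, 11.6 to 26.9) and 5 of 44 in CP+EVs, where the class fell under 50 barcodes. In the type 2 class (cDC2) the shares were 8.95% (23 of 257) and 10.2% (12 of 118), while the sums were 1701 and 1074 CPM for G2/M members, 1.58-fold more in CP (1.49 to 1.69), and 933 and 622 CPM for S phase members, 1.5-fold (1.38 to 1.63). S phase shares were 12.5% (32 of 257) and 8.47% (10 of 118), so the order of share and sum differed for G2/M members but not for S phase members, and the intervals of both pairs of shares overlap. Of 19 G2/M members measured 12 were higher in CP and 0 in CP+EVs, beside 23% and 9.84% of all genes; the cyclin Ccnb1 had the widest ratio, with 73 and 8 UMIs (4.42-fold, 2.13 to 10.6).

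Granulocytes were measured in CP, since CP+EVs held 33 neutrophils and 8 eosinophils. All CP neutrophils together gave 54 G2/M barcodes of 2023 (2.67%, 2.01 to 3.47). Of them, 176 carried UMIs of at least 2 markers of bone marrow precursors (such as Mpo, Elane and Camp), and 11 of the 130 deep enough were G2/M barcodes (8.46%, 4.30 to 14.6). The 1902 with none of those markers gave 33 of 1580 (2.09%, 1.44 to 2.92), of which 0 also met the S phase rule. The G2/M sum was 1830 CPM in the first set and 252 in the second. Mki67 read 428 and 58.4 CPM in the 2 sets, and Top2a 320 and 19.2 CPM. The kinesin Kif23 did not follow them, at 76.3 and 77.8 CPM. In eosinophils 47 of the 95 G2/M UMIs were Mki67 (191 CPM), with 7 of Top2a, 1 of Ube2c and 0 of Ccna2; 7 of 108 eosinophils met the G2/M rule and 0 of those met the S phase rule.

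Erythroid cells, red cell precursors found by haemoglobin and related genes, had the highest share of any class in CP with at least 50 barcodes. Of the 50, 23 were deep enough, and 10 were G2/M barcodes (43.5%, 23.2 to 65.5) and 9 S phase barcodes, all 9 of them in both sets. The sums were 6738 CPM for G2/M and 5422 for S phase members. Of the members, 22 of 23 G2/M, 15 of 16 S phase and Stmn1 had their highest CP level there among classes and subsets with at least 50 barcodes. Mki67 read 1545 CPM, Top2a 969, Pcna 959 and Rrm2 760 CPM. Their G2/M barcodes had a median of 8950.5 UMIs and the others 1324, and no CP+EVs barcode passed the gate.

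Of the epithelial and stromal classes, acinar cells, which make the digestive enzymes, gave 110 G2/M barcodes of 2321 in CP+EVs (4.74%, 3.91 to 5.68) and 73 S phase barcodes (3.15%, 2.47 to 3.94). That G2/M share stood above those of neutrophils without precursor markers and of Ighd B cells. It stood below the 6.48% (2.65 to 12.9) of CP eosinophils. Of the acinar G2/M barcodes 14.5% met the S phase rule, against 2.58% of the other acinar barcodes. The G2/M sum was 362 CPM, close to that of resting B cells. In CP 53 acinar barcodes were deep enough, 4 of them G2/M barcodes, and 76.2% of all measured genes were higher in CP and 5.84% in CP+EVs, so no member is compared there. Ductal cells gave 1 of 79 and endothelial cells 5 of 82 G2/M barcodes in CP+EVs (1.27% and 6.10%), with 5 and 4 barcodes of these classes in CP.

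Mesothelial cells, which line the organ's surface, held more of both lists in CP by their summed UMIs. G2/M barcodes were 10 of 156 in CP (6.41%, 3.12 to 11.5) and 0 of 108 in CP+EVs, which allows up to 2.78% by 3 counts and 3.36% by the exact interval; S phase barcodes were 22 (14.1%, 9.05 to 20.6) and 4 (3.70%, 1.02 to 9.21). The intervals of both pairs of shares overlap slightly. As a ratio, the S phase share was 3.81-fold higher in CP, with an interval that leaves out no difference (1.29 to 15.2). The log2 ratio of the G2/M shares, CP+EVs over CP, had an upper limit of -0.634. Without thinning the G2/M shares read 31.6% and 24.6%, and the S phase shares 50% and 56.8%, with CP+EVs higher. The sums were 607 and 114 CPM for G2/M members, 5.32-fold more in CP (4.41 to 6.46), and 928 and 332 CPM for S phase members, 2.79-fold (2.49 to 3.13). Of 9 G2/M members measured 9 were higher in CP, and of 12 S phase members 12 were, beside 19.8% of all genes; 0 were higher in CP+EVs, where 18.2% of genes were. Top2a read 133 and 18.7 CPM, Hmmr had 45 UMIs and 1, and the least different members were Cenpa (21.2 and 9.36 CPM) and Pcna (212 and 117 CPM).

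Fibroblasts, the largest class of CP with 2597 barcodes, had the lowest sums of any class with at least 50 barcodes in both libraries for G2/M members, 139 CPM in CP and 100 in CP+EVs (1.39-fold more in CP, 1.29 to 1.49). Their S phase sums were 304 and 254 CPM. G2/M barcodes were 38 of 1698 (2.24%, 1.59 to 3.06) and 13 of 1404 (0.926%, 0.494 to 1.58), beside 2.09% in neutrophils without precursor markers. The fibroblast intervals stand only just apart, and the share was 2.42-fold higher in CP (1.26 to 4.94). The order of the G2/M shares was the reverse without thinning, when they read 9.78% and 13.2%, and the class medians were 1531 and 5957 UMIs. Top2a was the 1 G2/M member measured, at 28.1 and 17.0 CPM, and of 5 S phase members only Tyms was higher in CP (23.4 and 9.41 CPM), beside 14.3% of all genes.

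**Figure D4:**
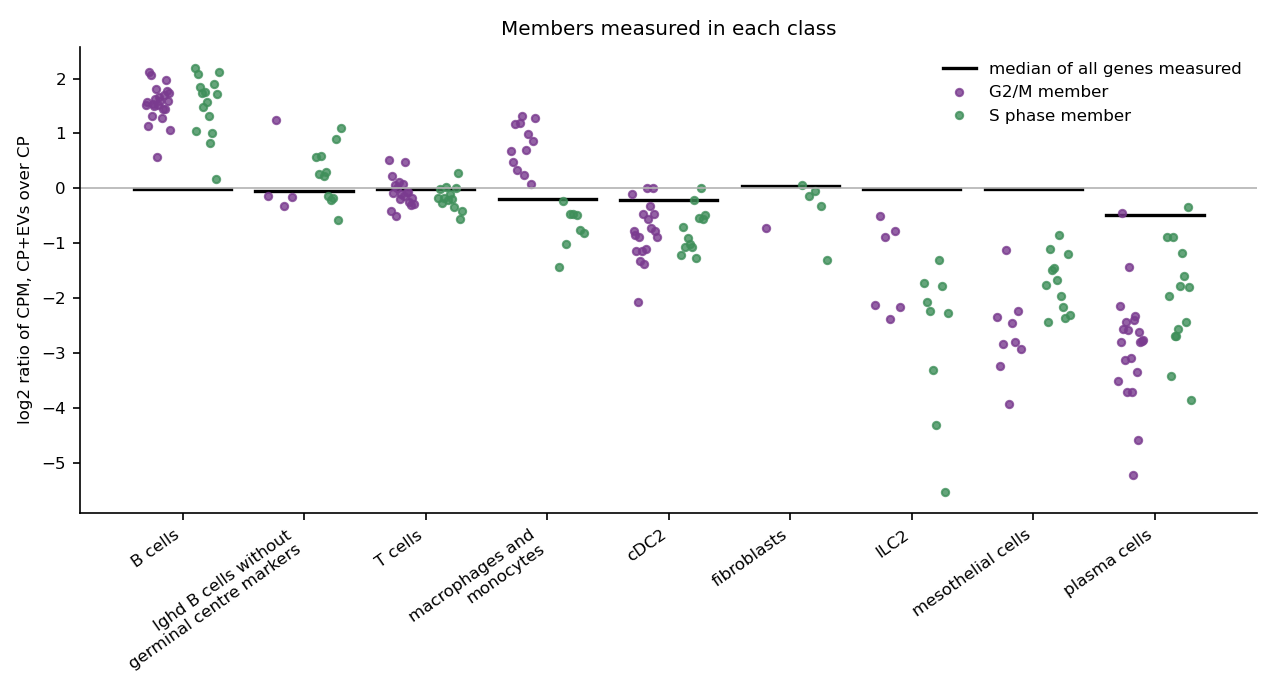
Log2 ratio of CPM, CP+EVs over CP, for each measured G2/M member (purple) and S phase member (green) in 9 classes and subsets; the black bar is the median of all genes measured in the class. The members sit above the bar in B cells, around it in the Ighd set and T cells, on opposite sides of it in macrophages and monocytes, and below it in ILC2 and mesothelial cells; in plasma cells all but Bub1b and Tk1 sit below it.

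Within B cells, genes that the G2/M rule did not use differed between the G2/M barcodes and the others. In CP+EVs 124 of the 147 G2/M barcodes passed the germinal centre gate, so this also sets germinal centre B cells against other B cells. Within that gate 83.9% of the G2/M barcodes and 50% of the others met the S phase rule. Of the CP+EVs G2/M barcodes 79.6% met the S phase rule, against 12.8% of the other B cells, and in CP these shares were 58.3% and 8.44%. In the thinned CP+EVs data Rrm2 read 422 CPM in G2/M barcodes (62 UMIs) and 19.0 CPM in the others (11 UMIs), 22.2-fold (11.6 to 46.8). Pcna differed less, at 844 and 228 CPM, 3.71-fold (2.88 to 4.77). Stmn1 read 850 and 58.6 CPM, and Cks1b, a subunit that works with Cdk1, 347 and 20.7 CPM. The antiproliferative gene Btg2 went the other way, at 204 and 812 CPM, 3.98-fold lower in G2/M barcodes (2.75 to 5.96). The same genes read in the same order in T cells of CP, with Rrm2 at 756 and 17.0 CPM, Stmn1 at 622 and 60.5 CPM, and Btg2 at 489 and 811 CPM. G2/M and other B cells of CP+EVs differed in depth before thinning, with medians of 9687 and 3322 UMIs.

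The members also differed in how far their UMIs fell in barcodes that met a rule. Each member's own UMIs count towards its rule, so these shares describe the rules. They are not an independent measure of how closely a member follows division. Of the thinned Top2a UMIs, 16.9% in CP and 17.5% in CP+EVs lay in barcodes that met neither rule. For Cenpa those shares were 68.7% and 50%, and for Pcna 64.6% and 55.1%. Kif23 gave 66.6% in CP and 26.8% in CP+EVs, and Mki67 33.1% and 16.6%. In CP the S phase members Tk1 (52.3%), Rrm1 (51.4%) and Cdc45 (50%, of 38 UMIs) also had at least 50% of their UMIs outside barcodes that met either rule, and no other member did. In the Ighd B cells, Cenpa read 134 and 122 CPM and Pcna 257 and 222 CPM, while Top2a read 57.6 and 52.1 CPM.

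Of 75 other cell cycle genes listed apart from the members, those of S phase and mitosis followed them. In B cells 15 of 18 other S phase genes and 21 of 22 other G2/M genes measured were higher in CP+EVs and 0 in CP, beside 13.7% and 14.2% of all genes. Pola1, a catalytic subunit of the polymerase that starts DNA strands, read 21.1 and 115 CPM (5.47-fold, 3.63 to 8.63), Ung, which removes uracil from DNA, 7.03 and 37.4 CPM, and the repressor E2f8 10.6 and 49.1 CPM. The inhibitors did not go with them, with Cdkn2c and Wee1 higher in CP+EVs, and Cdkn1a, Cdkn1b, Cdkn2d and Btg2 higher in CP, of 7 measured. In plasma cells 13 of 13 other S phase genes and 19 of 19 other G2/M genes were higher in CP, beside 44.1% of all genes. There the mitotic kinase Ttk had 23 UMIs in CP and 0 in CP+EVs, at least 6.52-fold higher when 3 UMIs are allowed for the 0. In ILC2 9 of 9 other S phase genes and 3 of 4 other G2/M genes were higher in CP, beside 21.6% of all genes, and the widest was the remodeller Hells with 26 and 2 UMIs. In mesothelial cells 10 of 13 other S phase genes and 4 of 8 other G2/M genes were, beside 19.8% of all genes, among them Ckap2 (54 and 2 UMIs) and Cks2 (86 and 5 UMIs).

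Among regulators of the G1 phase and inhibitors of the cycle, a few genes differed widely in single classes. In macrophages and monocytes Cdk6, a kinase of G1, read 94.7 CPM in CP and 26.8 in CP+EVs (3.53-fold, 2.64 to 4.84), and Wee1, an inhibitor of Cdk1, 7.26 and 21.7 CPM. In fibroblasts the inhibitors Cdkn1c (126 and 334 CPM, 2.64-fold, 2.50 to 2.80) and Cdkn1a (148 and 383 CPM, 2.59-fold, 2.46 to 2.73) were higher in CP+EVs; with Wee1 (16 and 35.6 CPM), 3 of 6 inhibitors measured there were, beside 13% of all genes. In T cells Myc (64.4 and 38.1 CPM) and the inhibitor Cdkn2d (44.6 and 25.4 CPM) were higher in CP. In cDC2 Ccnd1, a cyclin of G1, read 156 and 57.3 CPM.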

How the data were processed

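The 2 matrices hold whole UMI counts per gene and barcode, deposited by the authors with no normalization; per the submitters' processing notes CASAVA 1.8, UMI-tools and Seurat were used with mm10. For the aligner, the name is not given in the sources used, and the deposited matrices hold no barcode under 501 UMIs. The 40 members and all lists were chosen with earlier results of these data known.

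Barcodes stayed in if they held 200 or more genes and no more than 25% mitochondrial UMIs. A marker counted as present where its UMIs had a Poisson probability under 0.01 at 3 times the library's free RNA level, and a class needed 3 present markers. Barcodes with markers of an unrelated class at 60% or more of the first were set aside as mixed; no doublet caller was run. These limits were set after marker UMIs, but not member UMIs, had been seen. Member UMIs were summed per class as CPM, or counted per barcode after thinning to 1000 UMIs (seed 1). Levels are not scaled to gene length, so members are compared with themselves. Log2 ratios have 0.5 counts added.

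Named are the 5 members with the most UMIs of each list, and, per class, the members with the highest and lowest ratio, Stmn1 and the 3 other cell cycle genes with the largest ratio; genes named beyond these were chosen after their values were seen. With 1 library per group no test was made, and intervals (95%, binomial or Poisson) cover counting error only. Alternatives changed the gate, thinning, filters, member lists and scaling. Scripts were tested on simulated data. Python 3.11.15, numpy 2.4.6, scipy 1.17.1, pandas 2.3.3 and matplotlib 3.10.9 were used.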

Additional observations from a re-analysis of the deposited data

Results flagged for a closer look

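The order of the 2 libraries differed between classes, and the difference between classes was not tested. As log2 ratios of CPM, CP+EVs over CP, the G2/M sum was 1.503 in B cells and 0.59 in macrophages and monocytes, but -2.89 in plasma cells, -1.85 in ILC2, -0.66 in cDC2, -0.73 in acinar cells and -2.41 in mesothelial cells. For acinar cells the median over all measured genes was -1.33, so the G2/M sum lay above that background and its sign gives no order of the members. The S phase sum was 1.36 in B cells, -1.85 in plasma cells, -2.47 in ILC2 and -1.48 in mesothelial cells. Each group is 1 library, so the sign in a class is the sign of 1 pair of libraries.

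G2/M barcodes also lay outside the gated classes. Among barcodes with no class they made up 10.6% in CP and 18.2% in CP+EVs. Among barcodes with markers of unrelated classes they made up 9.88% and 14.2%, beside 2.09% in CP neutrophils without precursor markers and 6.48% in CP eosinophils. The medians of UMIs were 701 and 801.5 in the first set, of which 911 of 3998 and 307 of 872 barcodes were deep enough, and 8343 and 6329 in the second.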

How the results depend on the processing

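Values here are log2 ratios, CP+EVs over CP. Over B cells, T cells, macrophages and monocytes, and fibroblasts, 184 alternatives were computed for 16 results: 2 reversed, which means a change of sign in a value of at least 1.5-fold; of the rest, 136 stayed within the counting interval and 46 moved beyond it, including changes of sign in smaller values, such as those of T cells and of the fibroblast S phase share. For plasma cells, ILC2 and mesothelial cells, added after seeing the data, 138 alternatives gave 2, 108 and 28. B cells kept higher values in CP+EVs throughout, and the CPM of plasma cells, ILC2 and mesothelial cells stayed higher in CP, with G2/M ranges of -4.27 to -2.48, -2.62 to -1.43 and -2.46 to -1.83. Without thinning, the fibroblast G2/M share reversed to 0.43 and S phase share read 0.44, and the S phase shares of mesothelial and plasma cells reversed to 0.19 and 0.053. With 1 marker fewer, the macrophage and monocyte G2/M share reversed to -0.00072, their S phase CPM was -0.33, and B cell CPM was 1.24 (G2/M) and 1.18 (S phase). With 1 more marker, G2/M CPM was 1.69 in B cells, -0.27 in T cells, -0.065 in fibroblasts and 0.027 in macrophages and monocytes, and S phase CPM 1.51 in B and -0.28 in T cells. Asking for at least 1 member gave B cell shares of 0.54 (G2/M) and 0.21 (S phase). Asking for at least 3 gave S phase shares of 1.99 in B cells, -2.41 in fibroblasts and -2.35 in macrophages and monocytes, and a fibroblast G2/M share of -3.50. Thinning to 500 UMIs gave S phase shares of 1.795 in B cells, -0.69 in T cells, -1.27 in fibroblasts and -1.81 in macrophages and monocytes. With at least 500 genes, G2/M CPM was 1.42 in B cells, -0.025 in T cells and 0.41 in macrophages and monocytes, and the fibroblast S phase share -0.78. Means of per-barcode values gave G2/M CPM of 0.041 in T cells, -0.78 in fibroblasts and 0.47 in macrophages and monocytes, and S phase CPM of 0.997 in B cells, -0.42 in fibroblasts and -0.38 in macrophages and monocytes. Median-of-ratios scaling gave macrophages and monocytes 0.74 (G2/M CPM) and -0.40 (S phase CPM). Without the 2 leading members of each list (Top2a and Mki67, Pcna and Rrm1), G2/M CPM was 1.40 in B cells and 0.68 in macrophages and monocytes, S phase CPM 1.62 in B cells and -0.40 in fibroblasts, and S phase shares 1.905 in B cells and -1.27 in fibroblasts. Without the deepest 2% of barcodes, G2/M CPM was 1.15 in B cells, -0.36 in T cells and 0.021 in macrophages and monocytes, S phase CPM 1.27 in B and -0.37 in T cells, and the fibroblast S phase share -1.05. Without barcode sequences found in both libraries, an alternative added after seeing the data, the B cell G2/M CPM was 1.78 and the fibroblast S phase share -0.79. The cause of these changes was not tested. The smaller classes limit the depth: 39 to 83 barcodes stand behind each ILC2 and plasma cell share. No paired analysis was possible because each group is 1 library and the labels carry no replicate numbers.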
